A study of Mus musculus with 9 samples.

Results

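RNA of Myc, Mycn and Max was followed through RIPiT-seq (RNA and protein immunoprecipitation in tandem) of 3 mouse embryonic stem cell (ESC) lines. The 3 genes were chosen by name as the MYC paralogues and their partner, each matched 1 row of the deposited table by its symbol, and the table has 24132 rows. All 3 were among the 9787 genes with an RPKM (reads per kilobase, scaled to the mapped reads of the library) of at least 1 in at least 2 libraries, which were tested. The question was whether a difference of Myc RNA between the lines was shared by its paralogue and its partner. The Myc difference was already known when the genes were chosen, so its p-values below describe its size against the spread and are not independent support.

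MYC and MYCN are transcription factors of the basic helix-loop-helix leucine zipper class that bind E-box DNA as heterodimers with MAX, a small protein that also pairs with their antagonists of the MXD and MNT type. In ESCs, MYC is known as a target of LIF-STAT3 signalling and as a factor of self-renewal, and MYC and MYCN can in large part stand in for each other. WDR5, the protein pulled down here, is a subunit of the MLL histone methyltransferase complexes and also a binding partner of MYC on chromatin.

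All lines were V6.5 ESCs, a hybrid male line, infected with lentivirus and selected with puromycin, and all kept their endogenous WDR5. The empty vector line carried no tagged protein, the WT line carried FLAG-HA-tagged human WDR5, and the F266A line carried FLAG-HA-tagged human WDR5 with this substitution, which was made to impair RNA binding, in a construct that is also shorter at its N terminus. Each tagged line was a clone picked for near-endogenous WDR5. Every line gave 1 input library and 2 libraries of the tandem pull-down (IP), 9 libraries in all, at an estimated 13400000 to 50200000 mapped reads. Nothing in the labels says that the IPs of a line came from separate cultures, so p-values measure the spread between these libraries, and a difference between lines cannot be told apart from a difference between clones.

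Some RNAs set single libraries apart before any comparison. The 12 pluripotency markers summed to between 556.3 and 891.6 RPKM, none was at 0 and each reached 1 RPKM in every library. Their sum was lowest in F266A within each fraction: 556.3 against 595.2 and 632.6 in the inputs, and 653.4 and 756.0 against 758.3 to 891.6 in the IPs. Single markers differed: in the inputs Pou5f1 was at 39.8 RPKM in F266A against 50.2 in WT and 55.5 in empty vector, but Utf1 at 110.4 against 89.9 and 86.2. Markers of mesoderm, neural ectoderm, trophectoderm and fibroblasts summed to no more than 5.27 RPKM per list in any library. The 20 primitive endoderm markers summed to 79.8 RPKM in the F266A input and 101.4 in F266A IP replicate 2, against 39.4 in F266A IP replicate 1 and 35.8 to 46.0 in the other lines, and 18 of the 20 were higher in the former pair of libraries than in the other 7. Of these markers, none was at 0 in the F266A input or IP replicate 2, 3 were in IP replicate 1 and 1 to 3 were in the other lines. The Y-linked genes Ddx3y, Uty, Eif2s3y and Kdm5d summed to 4.43 RPKM in the F266A input and 7.21 in IP replicate 2 but to 0.0383 in IP replicate 1, while they summed to 7.42 to 9.50 in the empty vector line and to 0.182 to 0.325 in WT. F266A IP replicate 1 thus lacked most of the Y-linked RNA of its line. Its primitive endoderm sum was near those of the other lines, although 10 of the 20 markers were higher in it than in all 6 libraries of those lines, and 19 were lower in it than in both other F266A libraries. The labels place this library in the F266A line, and whether it came from the same cells as the other F266A libraries was not tested. Line differences, enrichment differences and the study's rule are also given without it.

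On mm9, Myc spans chr15:61816946-61821929 on the plus strand, Mycn spans chr12:12942902-12948720 on the minus strand and Max spans chr12:78038256-78063235 on the minus strand. The exons annotated in GENCODE M1 cover 2717, 3292 and 2005 bases, and no other annotated gene overlaps any of the 3. Because Myc and Mycn are paralogues, their mRNAs were searched for stretches that a read of 50 bases could not tell apart. A single annotated mRNA of each gene was used, and other mRNAs of the genes were not searched. The longest identical run between the mRNAs of the pair was 12 bases, and between Max and either paralogue it was 11. The most alike windows of 50 bases without gaps in the coding sequences of Myc and Mycn differed at 9 positions, and those of Max and either paralogue at 19. The closest pair is shown because, for the mRNAs searched, it bounds how alike a read from Myc can be to Mycn. It lies in exon 2 of 3 of both genes, in the conserved MYC box I near the N terminus, at chr15:61819215-61819264 on the plus strand and at chr12:12947012-12947061 on the minus strand, and the capitals mark the positions at which the paralogues differ.
Myc: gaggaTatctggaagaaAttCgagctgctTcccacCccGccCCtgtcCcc
Mycn: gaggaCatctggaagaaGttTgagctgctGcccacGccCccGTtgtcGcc
Over the whole of the mRNAs searched, too, no window of this length matched the paralogue with fewer than 9 mismatches.

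The level of Myc RNA was higher in the F266A line than in both other lines, in input and in IPs. In the inputs, Myc was at 1.26 RPKM in WT, 2.01 in empty vector and 5.19 in F266A. In the IPs it was at 4.63 and 2.33 RPKM in WT, 3.20 and 3.24 in empty vector and 9.21 and 7.60 in F266A, replicate 1 given before replicate 2. All 3 F266A libraries lay above all 6 others, and the lowest of them was 1.12 times the highest of the rest. Such a separation without overlap, in this direction, was found for 260 of the 9787 tested genes (2.66%). The IP means were 3.22 ± 0.03 RPKM (SD, n = 2) in empty vector, 3.48 ± 1.63 in WT and 8.41 ± 1.14 in F266A, so empty vector and WT did not differ beyond their spread. The F266A input held 4.11 times the Myc level of the WT input and 2.59 times that of the empty vector input, and the ratios of the IP means were 2.42 and 2.61. Among tested genes Myc stood above 76.9% to 81.4% in the F266A libraries and above 22.1% to 62.1% in the others.

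Mycn, which encodes the paralogue N-MYC, had a higher RPKM than Myc in every library but F266A IP replicate 2 and followed another order. Its inputs were at 8.80 RPKM in empty vector, 7.69 in WT and 5.57 in F266A. The IPs were at 9.64 and 10.2 RPKM in empty vector, 12.4 and 10.4 in WT and 13.8 and 6.06 in F266A. The F266A line thus held the lowest input and the lowest IP of Mycn and, in IP replicate 1, the highest value of the 9 libraries. The IP means, 9.92 ± 0.39 RPKM (SD, n = 2) in empty vector, 11.4 ± 1.37 in WT and 9.91 ± 5.44 in F266A, did not differ beyond the spread of the F266A IPs.

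Max, the shared partner, was the most even of the 3. Its inputs were at 12.3 RPKM in empty vector, 12.1 in WT and 9.32 in F266A. The IPs were at 15.5 and 17.5 RPKM in empty vector, 17.6 and 15.2 in WT and 15.4 and 14.8 in F266A. The F266A input was the lowest library, the F266A IPs overlapped those of WT and lay just under those of empty vector, and the IP means ran from 15.1 ± 0.44 to 16.5 ± 1.41 RPKM (SD, n = 2). The F266A input was low for tested genes in general, with a median log2 (RPKM + 1) of 1.73 against 1.84 in each of the other inputs. Max stood above 88.4% to 91.4% of tested genes in every library.

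**Figure D1:**
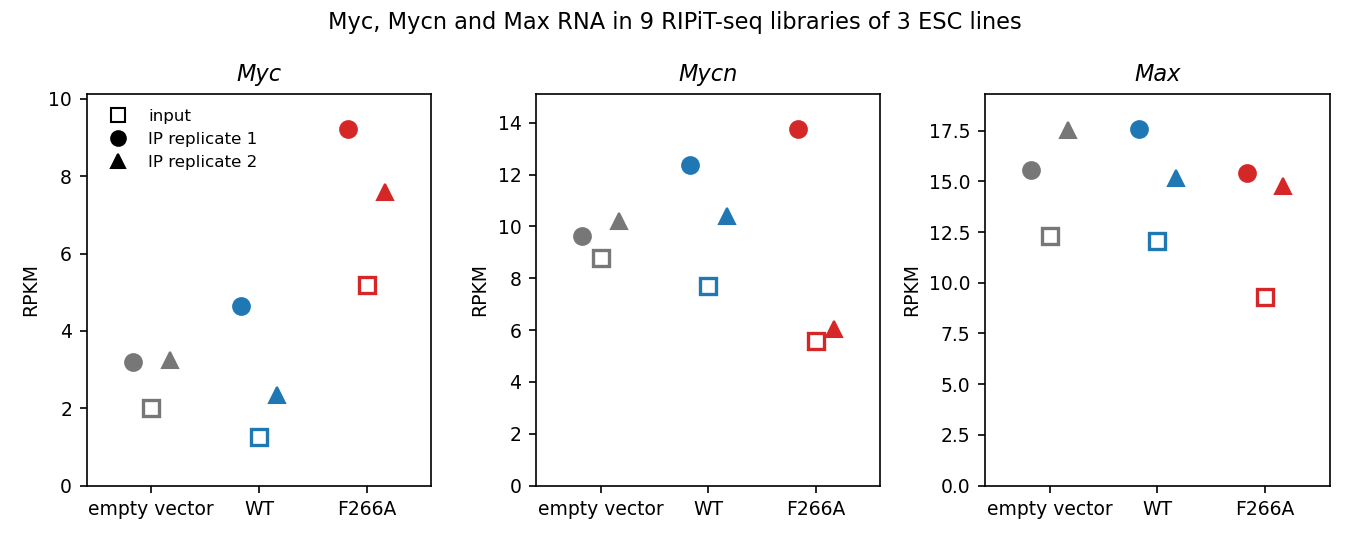
RPKM of Myc, Mycn and Max (y axes, each from 0) in the 3 ESC lines (x axis), with an open square for the input, a circle for IP replicate 1 and a triangle for IP replicate 2. Myc lies between 5.19 and 9.21 in the F266A line and between 1.26 and 4.63 in the others, while Mycn in F266A holds both the lowest input, 5.57, and the highest IP, 13.8.

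The 3 genes rested on different numbers of reads. From the RPKM, the exon lengths and the estimated depth, Myc had about 118 to 529 reads per library, Mycn 451 to 1450 and Max 472 to 1240. Counting error alone was then 4.35% to 9.21% of the Myc level, and PCR copies are not independent molecules, so this covers counting only. The closest values of Myc on either side of the line difference, 5.19 RPKM in the F266A input and 4.63 in WT IP replicate 1, were 1.12-fold apart and had counting errors of 4.35% and 5.40%.

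The balance of the paralogues moved with the Myc level. Mycn RPKM were 4.38, 3.02 and 3.15 times the Myc RPKM in the empty vector input, IP replicate 1 and IP replicate 2. In WT the same ratios were 6.10, 2.67 and 4.47. In F266A they were 1.07, 1.49 and 0.798, so the range of this line did not overlap that of the others. Expressed as a share, Myc made up 48.2%, 40.1% and 55.6% of the summed Myc and Mycn RPKM in F266A and 14.1% to 27.3% in the other libraries. Max RPKM were 0.671 to 1.35 times this sum, lowest in F266A IP replicate 1 and highest in the WT input.

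Line differences were estimated on the log2 (RPKM + 1) scale with limma, in a fit over all 9 libraries with terms for line and fraction (input or IP). WT minus F266A was -1.23 for Myc (SE 0.18, 95% confidence interval -1.62 to -0.84), with an adjusted p of 0.00283 after Benjamini-Hochberg adjustment over all tested genes. F266A minus empty vector was 1.12 (SE 0.18, 0.72 to 1.51, limma adjusted p = 0.00254). These contrasts share the F266A libraries and are not separate evidence. Between the IPs alone, WT minus F266A of Myc was -1.11 and missed the threshold (SE 0.22, limma adjusted p = 0.0668). WT minus empty vector was -0.11 (SE 0.18, -0.50 to 0.28, limma adjusted p = 0.918). In WT minus F266A 9.97% of tested genes were called (7.25% higher and 2.72% lower), in F266A minus empty vector 16.7% and in WT minus empty vector 0.174%, so calls in contrasts with F266A were common. Within them Myc stood near the end, with only 6 genes lower than Myc in WT minus F266A and 22 genes higher in F266A minus empty vector.

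The call was not shared: neither Mycn nor Max passed in a line contrast over all 9 libraries. Mycn was 0.32 in WT minus F266A (SE 0.22, interval -0.18 to 0.82, limma adjusted p = 0.420) and -0.26 in F266A minus empty vector (SE 0.22, -0.76 to 0.24, limma adjusted p = 0.466). Max was 0.18 in WT minus F266A (SE 0.10, -0.03 to 0.40, limma adjusted p = 0.264) and -0.20 in F266A minus empty vector (SE 0.10, -0.42 to 0.01, limma adjusted p = 0.177). The estimates of both had the opposite sign to Myc, and in both contrasts their intervals did not overlap that of Myc. WT minus empty vector was 0.06 for Mycn (interval -0.44 to 0.56) and -0.02 for Max (-0.23 to 0.20). In this last contrast the estimates of all 3 genes were so close to 0 that leaving out single libraries of either line turned their sign, without a call.

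Differences between the genes within a library were compared as well. Log2 (RPKM + 1) of Myc minus that of Mycn lay between -0.53 and 0.28 in the F266A libraries and between -1.94 and -1.25 in the others. Myc minus Max lay between -0.88 and -0.68 in F266A and between -2.53 and -1.72 elsewhere. Averaged over fractions, F266A exceeded the other lines by 1.53 for Myc minus Mycn and by 1.42 for Myc minus Max. In an exact two-sided permutation test of the F266A label within fractions, each gave p = 0.0222 (0.0222 after Benjamini-Hochberg adjustment over these 2 comparisons). That is the smallest p that 45 arrangements allow, and without any single F266A library only 15 arrangements remain, so that an exact p cannot fall below 0.0667. The values were then 1.32 to 1.73 for Mycn and 1.25 to 1.47 for Max. The separation of Myc was known beforehand and enters both differences, so these p-values describe the separation and are not independent support.

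F266A IP replicate 1 decided the call for Mycn. The IPs of the F266A line differed by 1.06 on the log2 scale in Mycn, replicate 1 being 2.27 times replicate 2, and only 67 of the tested genes had a larger gap in this line, where the median absolute gap was 0.163. In empty vector and WT the Mycn gaps were -0.07 and 0.23. Without this library, Mycn was lower in F266A than in both other lines: WT minus F266A was 0.64 (SE 0.12, interval 0.38 to 0.91, limma adjusted p = 0.00674) and F266A minus empty vector was -0.58 (SE 0.12, -0.85 to -0.32, limma adjusted p = 0.00723). More genes of all kinds were then called as well, 18.4% and 25.9% of those tested. Myc changed little, to -1.17 (SE 0.20, limma adjusted p = 0.00539) and 1.06 (SE 0.20, limma adjusted p = 0.00561), and Max remained uncalled at 0.23 and -0.25 (limma adjusted p = 0.153 and 0.105).

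**Figure D2:**
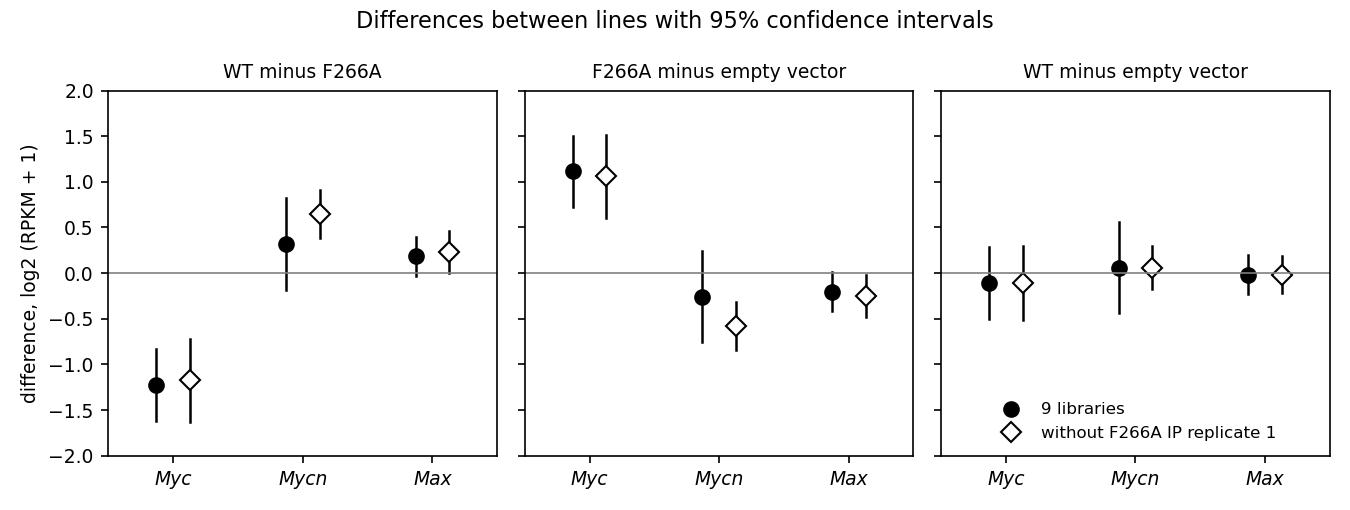
Line differences on the log2 (RPKM + 1) scale (y axis) for Myc, Mycn and Max (x axis) in the 3 contrasts, as estimates with 95% confidence intervals, filled circles for all 9 libraries and open diamonds without F266A IP replicate 1. Myc is at -1.23 and 1.12 in the contrasts with F266A with little movement, whereas Mycn goes from 0.32 to 0.64 and from -0.26 to -0.58 on leaving out that library.

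Markers of primitive endoderm, an extraembryonic lineage, differed among the F266A libraries. Myc was at 9.21 RPKM in IP replicate 1, where the endoderm sum was 39.4 RPKM, and at 7.60 in IP replicate 2, where it was 101.4. Mycn was at 13.8 RPKM in IP replicate 1 and at 5.57 and 6.06 in the input and IP replicate 2, which had the high endoderm sums. The part of cells of another type in the Myc and Mycn values was not tested, and in these bulk libraries a change in the number of expressing cells and a change in RNA per cell cannot be told apart.

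Across the 9 libraries, the Pearson correlation of log2 (RPKM + 1) was 0.07 for Myc with Mycn, 0.17 for Myc with Max and 0.72 for Mycn with Max, given as a description because the libraries share lines and fractions. The 5 tested genes most like Myc over these libraries were Yaf2 (0.981), Ddx4 (0.979), Spred2 (0.971), Gbx2 (0.971) and Dbn1 (0.97). Gbx2, a homeobox transcription factor, was at 2.86, 6.59 and 4.96 RPKM in the F266A input and IPs, at 1.09, 3.93 and 1.47 in WT and at 1.44, 2.22 and 1.90 in empty vector. Like Myc, Gbx2 was higher in WT IP replicate 1 than in the other WT libraries. The genes most like Myc, Mycn and Max were picked by this correlation over these same libraries. A pattern that they share with Myc, Mycn or Max therefore follows from the choice and is not support. Those most like Mycn were Sema3e (0.994), Grpel1 (0.984), Stx5a (0.967), Slc35b4 (0.967) and Zswim6 (0.96). Sema3e, which encodes a secreted semaphorin, was at 1.40 RPKM in F266A IP replicate 1. It was at 0.178 and 0.264 in the input and IP replicate 2 of that line, the same split as Mycn. Sema3e reached 1 RPKM only in F266A IP replicate 1 and, at 1.31, in WT IP replicate 1. It thus passed the filter only through libraries where it was high, near the floor, and its likeness to Mycn is not support. The genes nearest to Max were Zc3h3 (0.991), Hibch (0.983), Ube2b (0.981), Psmb1 (0.98) and Ubr7 (0.98). Like Max they were lowest in the F266A input, which also had the lowest median of all tested genes.

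The pull-down addressed a different question, whether RNA of the 3 genes was recovered with tagged WDR5. IP minus input over all lines cannot answer it, because the empty vector IPs, which hold no tagged protein, enter it too. These IPs were above their input by 0.48 and 0.49 for Myc, 0.12 and 0.19 for Mycn and 0.32 and 0.48 for Max. Over all lines, IP minus input was 0.67 for Myc (SE 0.15, limma adjusted p = 0.00432), 0.48 for Max (SE 0.08, limma adjusted p = 0.00135) and 0.43 for Mycn (SE 0.19, limma adjusted p = 0.0724). Of all tested genes, 64.3% were called in this contrast, 6247 (63.8%) higher and 50 lower in the IPs, and the median gene was higher by 0.30, so Myc and Max shared this direction with most genes. With libraries scaled to a common median, Myc was 0.36 (limma adjusted p = 0.210) and Max 0.09 (limma adjusted p = 0.485), and 295 genes were higher and 364 lower. Mycn passed on leaving out either F266A IP, at 0.27 without replicate 1 (limma adjusted p = 0.0306) and 0.56 without replicate 2 (limma adjusted p = 0.0124).

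Scores of each IP over the input of its own line showed where the IPs of a line parted. For Myc the score was 0.48 and 0.49 on the log2 scale in empty vector, 0.72 and 0.47 in F266A and 1.32 and 0.56 in WT. For Mycn it was 0.12 and 0.19 in empty vector, 1.17 and 0.10 in F266A and 0.62 and 0.39 in WT. For Max it was 0.32 and 0.48 in empty vector, 0.67 and 0.61 in F266A and 0.51 and 0.30 in WT. The high Myc score belonged to WT replicate 1, whose RPKM was 1.99 times that of replicate 2, a gap exceeded by 146 tested genes. The high Mycn score belonged to F266A replicate 1. This IP and the F266A input differed in summed Y-linked RNA (0.0383 against 4.43 RPKM) and primitive endoderm markers (39.4 against 79.8 RPKM). The part of such a difference in the scores of this IP was not tested. The median score of tested genes was 0.264 to 0.387 in the 6 IPs.

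**Figure D3:**
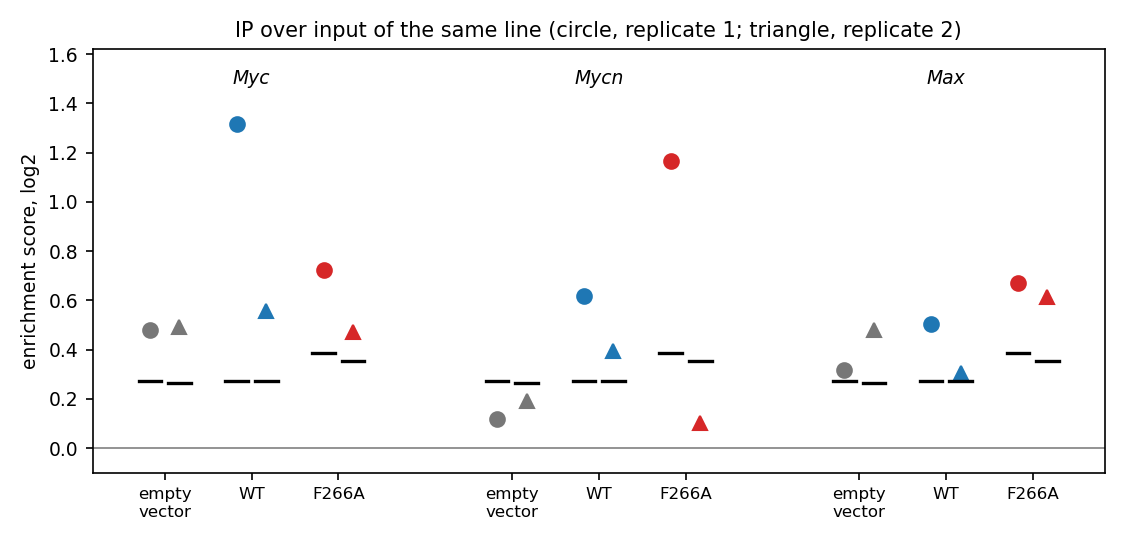
Enrichment score (y axis, log2 (RPKM + 1) of an IP minus that of the input of its line) of Myc, Mycn and Max in the 3 lines (x axis), with circles for replicate 1 and triangles for replicate 2, and black bars for the median score of the tested genes in that IP. The 2 highest points, Myc at 1.32 in WT and Mycn at 1.17 in F266A, each have a partner replicate below 0.6.

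By the study's rule, an RNA counts as bound by WT WDR5 when the lower WT score is above 0 and above all 4 scores of the F266A and empty vector IPs. With all 6 IPs and a pseudocount of 1, none of the 3 genes met it. The margin, the lower WT score minus the highest of those 4, was -0.16 for Myc, -0.77 for Mycn and -0.37 for Max, and 1157 genes of the table (4.79%) met the rule. With a pseudocount of 0.1 Myc met it, by a margin of 0.02, while Mycn and Max did not. The highest control score of all 3 came from F266A IP replicate 1. Without this library Myc met the rule by a margin of 0.06 and Mycn by 0.20, while Max did not meet it at -0.31. Fewer controls make the rule easier to meet, and 1977 genes (8.19%) then met it. Leaving out any other control IP could not move the 3 margins, since it does not hold the highest control score, and 1426 to 1697 genes (5.91% to 7.03%) then met the rule. With a pseudocount of 1 the outcome for Myc and Mycn therefore rested on 1 library, and for Myc it also turned with the pseudocount. The study drew on a wider set of transcripts, not analysed here, and the pseudocount in its scores is not given in the sources used here.

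No difference in enrichment between lines was called for any of the 3 genes. WT minus F266A was 0.34 for Myc (SE 0.39, interval -0.55 to 1.23), -0.13 for Mycn (SE 0.50, -1.29 to 1.03) and -0.24 for Max (SE 0.22, -0.75 to 0.28). WT minus empty vector was 0.45, 0.35 and 0.01, and F266A minus empty vector was 0.11, 0.48 and 0.24. All limma adjusted p were close to 1. With limma 0 of the 9787 tested genes (0%) passed in any of these contrasts. At an unadjusted limma p under 0.05 there were 259 genes (2.65%) in WT minus F266A. WT minus empty vector had 173 (1.77%) and F266A minus empty vector 243 (2.48%). These shares lie below the 0.05 that such a threshold passes on average when no gene differs. Single IPs set the sign for the paralogues: without WT IP replicate 1, WT minus F266A of Myc was -0.04, and without F266A IP replicate 1 that of Mycn was 0.40. Leaving out F266A IP replicate 1 also put F266A minus empty vector at -0.01 for Myc and -0.05 for Mycn. For Myc the interval of WT minus F266A reached 1.23, so a higher pull-down in WT of up to that size was not excluded by these libraries. With 1 input per line, the spread in this fit came from the pairs of IPs alone. The spread between inputs of a line was not measured, and the intervals take it to be like that of the IPs.

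Genes of the wider MYC pathway were counted in the same line contrasts. Counts here are of genes passing a limma adjusted p under 0.05, to be read against 5.45% of all tested genes higher and 11.3% lower in F266A minus empty vector. Of 35 tested MYC target genes, 2 were higher and 5 lower in F266A than in empty vector, with a median of -0.11 against -0.04 for all tested genes. The higher ones were Hk2, which encodes the glycolytic enzyme hexokinase 2, by 0.90 (SE 0.08, limma adjusted p = 0.000269), and E2f2, a transcription factor of the cell cycle, by 0.75 (SE 0.15, limma adjusted p = 0.00856). E2f2 was at 1.985, 1.08 and 2.26 RPKM in the F266A input and IPs and at 0.57 to 0.90 in the other libraries. It thus passed the filter of 1 RPKM only through the line where it was high, near the floor, and its call is not support. Hk2 was at 10.5, 14.5 and 13.2 RPKM in the F266A input and IPs and at 4.90 to 6.95 in the other libraries, and like Myc it showed no overlap. It was also called in WT minus F266A, where it was -0.98 (SE 0.08, limma adjusted p = 0.000713).

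The 5 lower targets were Nme2 at -0.77, Npm1 at -0.60, Srm at -0.49, Hspe1 at -0.44 and Cdk4 at -0.41, with limma adjusted p between 0.00509 and 0.0251. Npm1 encodes the nucleolar protein nucleophosmin, Srm spermidine synthase, Hspe1 a mitochondrial chaperonin and Cdk4 a cell cycle kinase. Nme2, Npm1 and Hspe1 have near-identical copies in the genome, and how reads were divided among them is not given in the sources used here. After quantile normalization the targets gave 6 higher and 4 lower calls, and Npm1 was no longer called at -0.09 (limma adjusted p = 0.426). The same scaling moved all calls from 533 higher and 1102 lower to 884 and 864, so the balance of higher and lower calls in the list moved with the scaling as it did for all genes. In WT minus F266A, Hk2 was the lower and Hspe1 (0.37) the higher call, and in WT minus empty vector no target was called (over all 9 libraries).

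Partners and antagonists of the network were tested for 8 of 10 genes, since Mxd1 and Mxd4 stayed below the filter. None was higher and 2 were lower in F266A than in empty vector. Mnt, which pairs with MAX and represses E-box genes, was at 1.93, 3.90 and 3.06 RPKM in the F266A input and IPs against 3.55, 4.84 and 5.23 in empty vector, a difference of -0.50 (SE 0.10, limma adjusted p = 0.00718). Mga, another MAX partner with a repressive role, differed by -0.42 (SE 0.11, limma adjusted p = 0.0284). The others lay between -0.31 for Mycl1, the L-MYC gene, and 0.28 for Mlxipl, with Mxd3 at -0.15, Mxi1 at 0.04, Mlx at 0.04 and Mlxip at 0.14. No member of this list was called in the other line contrasts over all 9 libraries.

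**Figure D4:**
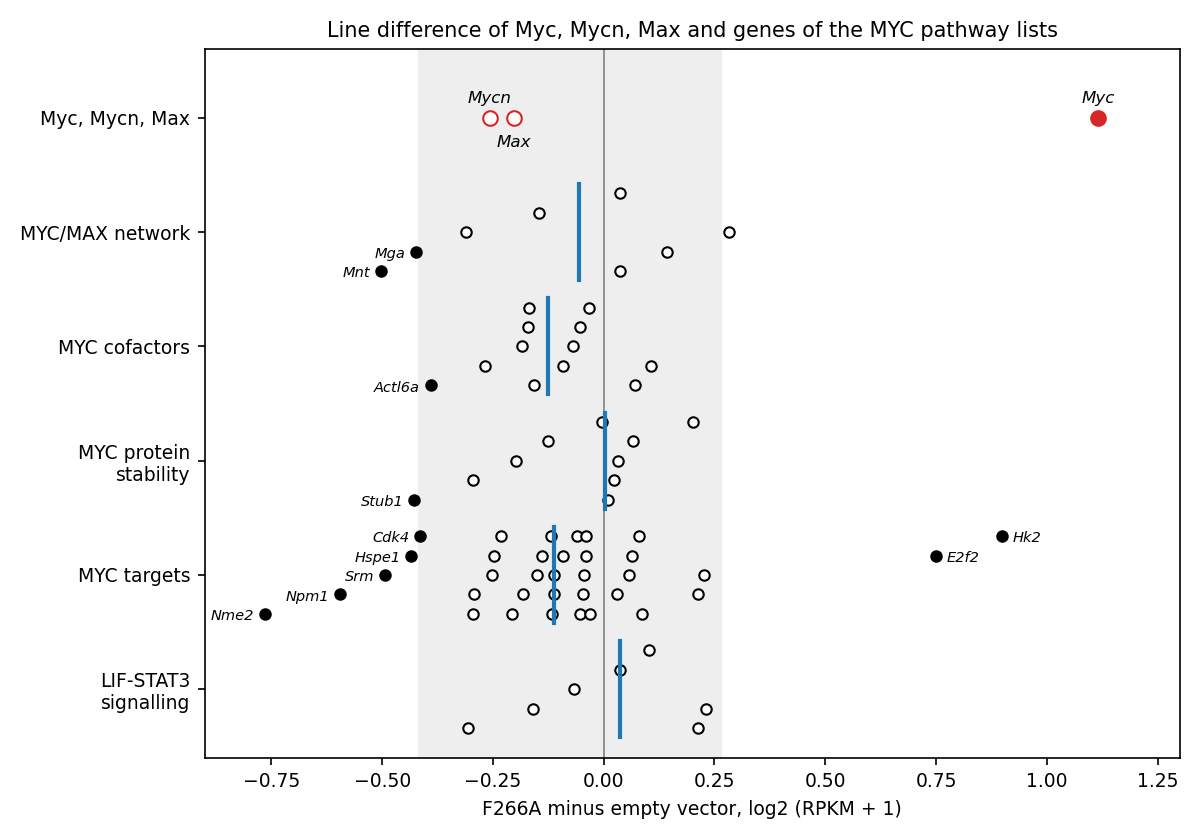
F266A minus empty vector on the log2 (RPKM + 1) scale (x axis) for Myc, Mycn and Max and for the tested genes of 5 pathway lists (rows; vertical position within a row only separates points), filled where the limma adjusted p was under 0.05. Blue bars are list medians and the grey band holds the middle 80% of all tested genes, from -0.42 to 0.27. Myc at 1.12 lies above the band, followed by Hk2 at 0.90 and E2f2 at 0.75, while Mycn and Max lie inside it. E2f2 passed the filter on low values only through the F266A libraries.

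Among 12 cofactors of MYC, Actl6a, which encodes an actin-related chromatin remodelling subunit, was lower in F266A than in empty vector (-0.39, SE 0.10, limma adjusted p = 0.0280). Wdr5 was higher in WT than in F266A (0.54, SE 0.09, limma adjusted p = 0.005), at 9.54 to 12.9 RPKM in WT, 5.85 to 8.79 in F266A and 8.05 to 10.5 in empty vector. Whether reads of the human construct entered this mouse row was not tested. Of 10 genes acting on MYC protein stability, only Stub1, a ubiquitin ligase gene, was lower (-0.43, SE 0.12, limma adjusted p = 0.0411), and none of the 7 tested genes of the LIF-STAT3 list was called. That list also holds Tcf7l1 and Ctnnb1, which belong to Wnt signalling. Pvt1, the long non-coding RNA gene next to Myc, at chr15:61869542-62209651 on the plus strand, was 0.21 in F266A minus empty vector and -0.08 in WT minus F266A, neither called. Its RPKM, 2.37 to 3.63 in F266A and 2.03 to 3.01 in the other libraries, overlapped between lines where those of Myc did not.

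Without F266A IP replicate 1, more genes of these lists passed in F266A minus empty vector: 3 higher and 9 lower targets, 1 higher and 3 lower network genes, 2 lower cofactors, 2 lower stability genes and 3 lower genes of the LIF-STAT3 list (Il6st and the Wnt pathway genes Tcf7l1 and Ctnnb1), among 25.9% of all tested genes called. Hk2 and E2f2 remained higher at 0.85 and 0.96 (limma adjusted p = 0.000268 each), and Mnt remained lower at -0.60 (limma adjusted p = 0.00111). For E2f2, which passed the filter only through F266A, the calls in this fit are not support either. In WT minus F266A, where 18.4% of all tested genes were then called, the network list had 2 higher genes, Mnt at 0.45 (SE 0.08, limma adjusted p = 0.00672) and Mxd3, a MAX partner that antagonises MYC, at 0.26 (SE 0.08, limma adjusted p = 0.0448). Of the cofactors 4 were higher (Wdr5, Cdk9, Ruvbl1 and Actl6a), as were 2 stability genes (Pim1 and Stub1) and 1 gene of the LIF-STAT3 list (the Wnt pathway gene Ctnnb1). Of the targets 3 were higher (Hspe1, Cdk4 and Pes1) and 2 lower (Hk2 and E2f2). In WT minus empty vector none of the genes of these lists was called in this fit.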

How the data were processed

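RIPiT-seq used formaldehyde crosslinking, FLAG and then HA purification, an amplified and unstranded library and single reads of 50 bases. The authors aligned these with TopHat 1.1.3 to the mm9 assembly. A script of their own gave the deposited RPKM, listed by gene symbol. RPKM are not counts, so no count test was run. Depth was estimated from the lowest RPKM steps and the exon lengths of 21046 of 24132 symbols. Libraries were grouped by their labels, each as 1 replicate.

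Genes reaching 1 RPKM in 2 or more libraries were kept, and their log2 (RPKM + 1) was fitted with limma 3.58.1 in R 4.3.3 (eBayes with trend, Benjamini-Hochberg adjustment over 9787 genes, threshold 0.05), after tests on simulated data. Differences on this scale understate changes of low genes. Permutation tests and ratios used Python 3.11.15, numpy 2.4.6, pandas 2.3.3 and scipy 1.17.1, and figures matplotlib 3.10.9. Positions and sequences came from GENCODE M1 and the mm9 genome.

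The members and all gene lists were chosen with earlier results of these data known. Named genes are Myc, Mycn and Max, the network list, list genes called in a line contrast and the 5 genes most correlated with each member. Gbx2 and Sema3e were picked from the last for values after these were seen. Alternatives were the pseudocount, the filter, 2 scalings, the variance prior, a replicate block, IPs only, a common input and leaving out each library. Leaving out F266A IP replicate 1 for the list counts, alone and with IPs only for the members, and each control IP for the study's rule, was chosen after seeing the data.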

Additional observations from a re-analysis of the deposited data

How the results depend on the processing

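The line difference of Myc in both F266A contrasts kept its direction under every alternative, between -1.53 and -0.99 (WT minus F266A) and between 1.03 and 1.34 (F266A minus empty vector). It missed the limma threshold with IPs only at -1.11 (adjusted p = 0.0668), and with IPs only and without F266A IP replicate 1 at -0.99 (0.121) and 1.03 (0.0765), where Mycn in WT minus F266A was 0.81 (0.0463). IPs only gave WT minus empty vector of Myc at 0.039, with or without that library, and called 114, 0 and 445 genes (WT minus F266A, WT minus empty vector, F266A minus empty vector), without that library 196, 7 and 480. Quantile normalization gave 0.0017 for Max and 27 genes in WT minus empty vector. For IP minus input it gave 0.36 for Myc, 0.040 for Max and 616 genes called, and median scaling gave 0.36, 0.093 and 659. These scalings put the enrichment difference F266A minus empty vector of Myc at -0.084 and -0.083, and median scaling put WT minus empty vector of Max at -0.0076. Genes called for enrichment rose from 0 to 88 in F266A minus empty vector with a pseudocount of 0.1, and to 33, 45 and 22 in WT minus F266A, WT minus empty vector and F266A minus empty vector without the filter. The margin of the study's rule was 0.020 for Myc with a pseudocount of 0.1, and -1.62, -0.37 and -0.20 for Myc, Mycn and Max with a common input. Leaving out each F266A or empty vector IP in turn, it ranged from -0.16 to 0.065 for Myc, from -0.77 to 0.20 for Mycn and from -0.37 to -0.31 for Max, highest without F266A IP replicate 1. The causes were not tested.

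Leaving out each library in turn moved the line differences to -1.48 to -1.07 for Myc, 0.065 to 0.64 for Mycn and 0.10 to 0.25 for Max in WT minus F266A, to 1.06 to 1.21, -0.58 to -0.0039 and -0.26 to -0.12 in F266A minus empty vector, and to -0.37 to 0.047, -0.014 to 0.20 and -0.078 to 0.051 in WT minus empty vector. Genes called ranged from 293 to 1800, from 804 to 2531 and from 0 to 61 in these contrasts, lowest without the WT input, empty vector IP replicate 1 and empty vector IP replicate 1, and highest without F266A IP replicate 1 in each. IP minus input ranged from 0.54 to 0.77 for Myc, 0.27 to 0.57 for Mycn and 0.40 to 0.52 for Max, with 3835 to 6595 genes called. Enrichment differences ranged from -0.039 to 0.72, -0.66 to 0.40 and -0.34 to -0.14 in WT minus F266A (0 to 2 genes called), from 0.072 to 0.83, 0.24 to 0.46 and -0.093 to 0.11 in WT minus empty vector, and from -0.013 to 0.24, -0.053 to 1.01 and 0.16 to 0.33 in F266A minus empty vector. Without an F266A library the exact permutation values were 1.32 to 1.73 (Myc minus Mycn) and 1.25 to 1.47 (Myc minus Max), and over all left-out libraries the latter reached 1.52.

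Whether the replicate numbers pair the IPs of different lines was not tested. The replicate 1 minus replicate 2 gaps correlated at 0.112 (empty vector with WT), 0.0116 (empty vector with F266A) and 0.258 (WT with F266A). The replicate block changed 1 call of the 3 genes, IP minus input of Mycn, at 0.43 (limma adjusted p = 0.0417), and raised the genes called in WT minus F266A to 1167 and in F266A minus empty vector to 1908. Depth limits Myc most, at 118 reads in the shallowest library, and 2 IPs and 1 input per line limit every contrast.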
